A study of Drosophila melanogaster with 9 samples.

Results

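Across the 5 large chromosome arms of Drosophila melanogaster (2L, 2R, 3L, 3R and X), 543 KDM5-bound regions were found in every anti-HA library of the series and held no H3K4me3 peak. They were defined by the deposited peak lists. The peaks of the 4 anti-HA libraries were merged wherever they overlapped by at least 1 bp, which gave 7537 regions. Of these, 3337 lay on the large arms and contained a peak of each library, and are called core regions here. The 543 regions were the core regions that no peak of the wildtype H3K4me3 list overlapped by even 1 bp, or 16.3% of the 3337 (95% Wilson interval 15.1 to 17.6). The other 2794 core regions held the mark, 2263 of them with 1 H3K4me3 peak and 531 with 2 or more. Because the anti-HA and H3K4me3 calls chose the regions, differences between unmarked and marked regions in those lists are given as a description, with no test.

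All libraries came from whole adult females aged 1 to 3 days, so every value is an average over the tissues of the fly. The anti-HA libraries were made from flies homozygous for k6801, an insertion allele of the Kdm5 gene, that also carried gHA-KDM5, a genomic rescue transgene with an HA tag. Control 1 and control 2 came from flies kept for 6 hours on 5% sucrose. Paraquat 1 and paraquat 2 came from flies kept for the same time on sucrose with 20 mM paraquat, a herbicide that causes oxidative stress. The labels record neither the insertion site of the transgene nor whether libraries 1 and 2 were separate batches of flies. Wildtype w1118 flies, with no feeding recorded, gave 1 library with an antibody against KDM5 and 1 with an antibody against H3K4me3. The anti-HA lists held 4853 to 7403 peaks, the wildtype KDM5 list 8948 and the H3K4me3 list 7287, of which 4612 lay on the large arms. Sequencing depth is unknown, since the lists give no read totals.

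KDM5, known in flies as Little imaginal discs, is the only member of its family in Drosophila. Its JmjC domain removes methyl groups from lysine 4 of histone H3, and it also carries an ARID domain, which binds DNA, and PHD fingers, which read the state of the same histone tail. H3K4me3, the trimethylated form, marks the nucleosomes around the start sites of active genes. A region with KDM5 and no H3K4me3 peak is thus a place where the tagged enzyme was mapped and the substrate was not called in wildtype flies. The series has no H3K4me3 library from the flies of the anti-HA libraries, on sucrose or on paraquat. Marked and unmarked therefore refer here to the wildtype flies only. A missing peak is not a missing mark: the weakest H3K4me3 peaks deposited had a q-value just under 0.05, and a weaker signal, or one present in few cells of the fly, would not be listed. The genes at these positions were not analysed here, because the coordinates are of the dm3 build and no gene models or genome of that build were used.

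The regions without H3K4me3 were narrower and weaker at the median than the core regions with it. By mean rank over the 4 anti-HA lists, 344 of the 543, or 63.4% (59.2 to 67.3), were in the weakest 25% of the core set. So were 491 of the 2794 marked regions, or 17.6% (16.2 to 19.0). Widths of the unmarked regions ran from 158 to 1299 bp with a median of 491 bp, and the middle 50% lay between 392.5 and 638 bp. Core regions with 1 H3K4me3 peak had a median width of 684 bp, and those with 2 or more a median of 1281 bp. Of the 543 unmarked regions, 370, or 68.1% (64.1 to 71.9), held exactly 1 peak from each library. The share was close to this in core regions with 1 H3K4me3 peak, at 64.8% (62.8 to 66.7). It was lower, at 21.1% (17.8 to 24.8), only in the wider regions with several H3K4me3 peaks. By decile of width, 50.3% of the narrowest core regions were unmarked, 3.89% in the ninth decile and 0 of 334 in the widest (95% Wilson interval 0 to 1.14). A wider region has more bases that an H3K4me3 peak can overlap, and the part of width in the result was not tested.

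Peak height was read as the fold enrichment of the best peak of a library in each region, a ratio to the local background made by the authors' peak caller. Control 1 had a median fold of 2.81 over the 543 regions, with a lowest of 1.65 and a highest of 6.95. Control 2 had a median of 2.90, from 1.77 to 6.83. The control medians averaged 2.85 ± 0.064 (SD, n = 2). The 2 control medians were thus close, which says nothing about agreement region by region. Paraquat 1 had a median of 3.40, from 1.81 to 7.41, and paraquat 2 a median of 2.86, from 1.87 to 6.97. The paraquat medians averaged 3.13 ± 0.383 (SD, n = 2), and paraquat 1 alone lay above the other libraries. In core regions with the mark the medians were 3.63 in each control library, 4.46 in paraquat 1 and 3.55 in paraquat 2, so the unmarked regions were lower in every library.

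**Figure D1:**
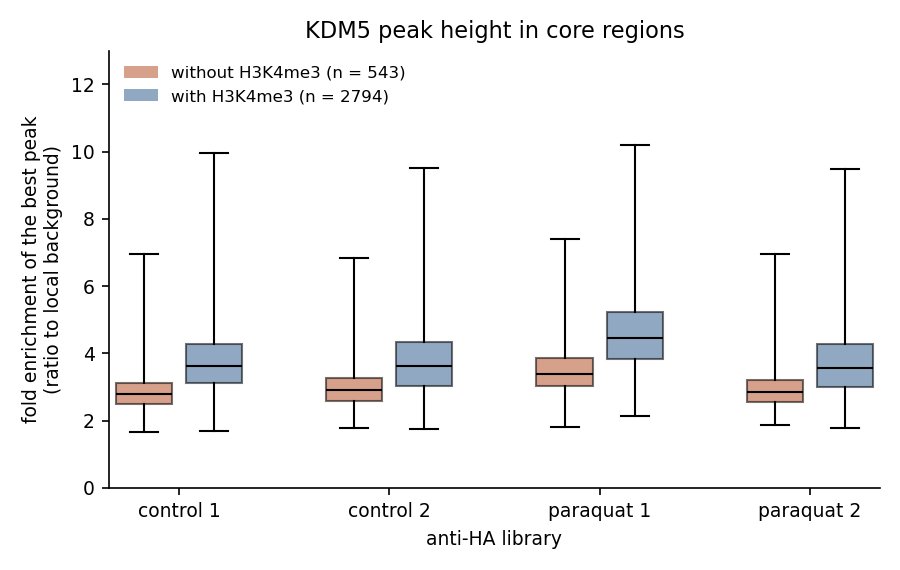
Fold enrichment of the best KDM5 peak (y axis, ratio to local background) in the 543 core regions without H3K4me3 and the 2794 with it, for each of the 4 anti-HA libraries. Boxes span the quartiles with the median as a line, and whiskers reach the lowest and highest region; the unmarked regions have the lower median in each library (2.81 against 3.63 in control 1), with overlapping ranges.

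Summit pileups, the number of ChIP fragments stacked at the summit, were likewise lower at the unmarked regions in every library. The median pileup over the 543 regions was 45 fragments in control 1, 40 in control 2, 52 in paraquat 1 and 43 in paraquat 2. In core regions with the mark it was 58, 50, 67 and 53 fragments in the same order of libraries. Pileups are not divided by depth, so they are compared here only within a library. The local background that the caller used, recovered as (pileup + 1)/fold − 1, was also examined. It lay above the lowest value of its list in 47.9% to 54.3% of the unmarked regions across the 4 libraries, and in 39.5% to 44.7% of the marked ones. Most of these excesses were small: the background exceeded 1.5 times the lowest value in 8 to 14 of the 543 regions, depending on the library. In 1 region it did so in all 4 libraries.

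The share of core regions without H3K4me3 fell with anti-HA strength. For strength, the best peak of each library was ranked by −log10 p among all peaks of its own list, written as a percentile with 100 at the top, and the 4 percentiles were averaged. In the weakest 10% of core regions, 181 of 334, or 54.2% (48.8 to 59.5), had no H3K4me3 peak. In the fifth decile the share was 12.9% (9.70 to 16.9), in the eighth 2.10% (1.02 to 4.27), and in the strongest 0.898% (0.306 to 2.61), which was 3 of 334 regions. The 4 strongest deciles together held 26 of the 543 regions. By mean percentile, 295 of the 543 lay from 25 to under 50 and 175 from 50 to under 75. The libraries differed in this: paraquat 1 placed 63.7% (59.6 to 67.7) of the unmarked regions in the upper 50% of its list, against 35.0% in control 1, 33.7% in control 2 and 35.0% in paraquat 2. A percentile depends on the length of its list, and the paraquat 1 list was the longest, at 7403 peaks against 4853 to 5886. The part of list length in this difference was not tested. In 71 regions all 4 libraries placed the peak in the upper 50% of their lists, and in 125 all 4 placed it in the lower 50%.

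**Figure D2:**
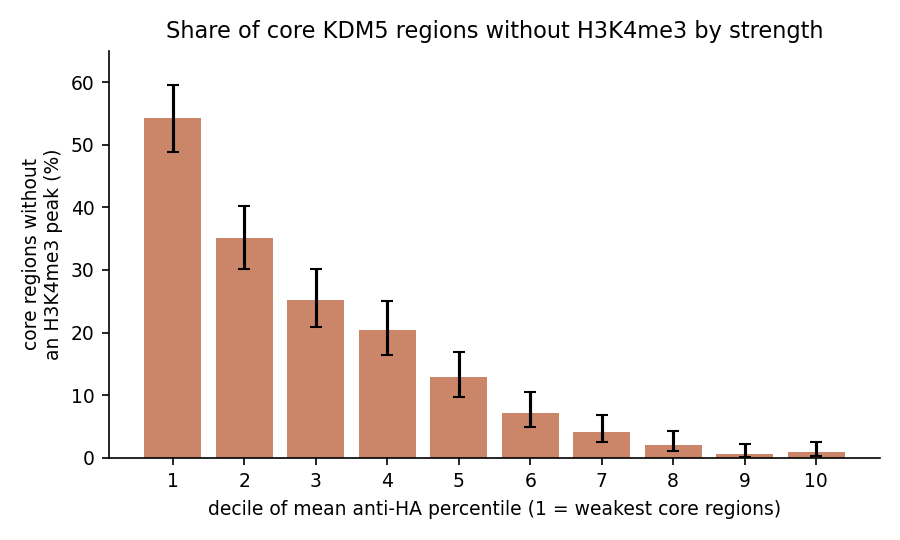
Share of core KDM5 regions without an H3K4me3 peak (y axis, percent) in each decile of mean anti-HA percentile (x axis, 1 is weakest, 333 or 334 regions each). Bars give the share and lines the 95% Wilson interval, which covers counting error only; the share falls from 54.2% in the weakest decile to 0.898% in the strongest.

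The number of unmarked regions depended on which peaks were admitted. With the upper 50% of the H3K4me3 list taken as the mark, 1289 core regions held none, and with the upper 50% of each anti-HA list taken as KDM5, 71 regions remained. Requiring 1000 bp free of H3K4me3 on either side left 344.

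The median distance of the unmarked regions to the nearest H3K4me3 peak, edge to edge, was 2465 bp, and the middle 50% lay between 551 and 8722 bp. The median depended on the thresholds: it was 4299 bp with the upper 50% of each anti-HA list, 3980 bp with the upper 50% of the H3K4me3 list and 1590 bp with the control libraries alone. With 500 or 1000 bp kept free of H3K4me3, which removes the nearest regions, it was 4163 or 6000 bp. Within 500 bp lay 122 regions, or 22.5% (19.2 to 26.2), and 77 more within 1000 bp. A further 149 regions lay up to 5000 bp away, 131 up to 20000 bp, and 64, or 11.8% (9.34 to 14.8), beyond 20000 bp. An H3K4me3 peak within 5 kb lay on 1 side of 269 regions and on both sides of 79, and 195 regions had none on either side. There was no H3K4me3 peak within 50 kb of 20 regions. Merged anti-HA regions of the same arms that had no H3K4me3 peak but came from 3, 2 or 1 libraries lay at median distances of 2062, 2107 and 1017 bp.

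Distance to the mark told little about the height of the KDM5 peak. From the nearest to the farthest of these 5 distance classes the median width was 516, 486, 500, 495 and 458.5 bp. The median of the mean anti-HA fold was 3.02, 2.97, 3.01, 2.99 and 2.95, and the median wildtype KDM5 fold 7.62, 7.51, 7.30, 7.41 and 7.84. Regions next to an H3K4me3 peak and regions beyond 20000 bp thus had like widths and heights. Over the 543 regions Spearman's rho between distance and mean percentile was 0.027, and between distance and width −0.049, given as a description over regions that share libraries. The nearest H3K4me3 peak lay in another core region for 417 of the 543, or 76.8% (73.1 to 80.2), close to the 73.6% (72.3 to 74.8) of all H3K4me3 peaks on the arms that lay in a core region. Its median fold was 2.56, beside 2.53 for all H3K4me3 peaks on the arms.

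The regions just inside and just outside the rule show how thin its edge is. The closest unmarked region, at chr3L:4405581-4406064, ended 4 bp from an H3K4me3 peak. It was followed by regions at chr3L:17426982-17427169 (12 bp), at chr2R:20458469-20459403 (17 bp), and at chr2L:17477142-17477906 (47 bp) and chr2L:12040137-12040715 (50 bp). On the other side, the core regions with the smallest overlap lay at chr2L:1128787-1128991 (2 bp) and chr2L:298204-298545 (7 bp), at chrX:7955510-7955933 (18 bp), at chr3L:347404-348021 (29 bp) and at chr2R:20401970-20402339 (40 bp). Mean anti-HA folds were 2.29 to 5.45 for the 5 just inside and 2.47 to 3.51 for the 5 just outside. Such borderline cases were few: 12 of the 543 had an H3K4me3 peak within 100 bp, and 8 of the 2794 marked regions were overlapped by less than 50 bp in all.

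The wildtype KDM5 library, which the rule did not use, had a peak at 542 of the 543 regions, or 99.8% (98.96 to 99.97). Over all core regions the share was 3336 of 3337 (100% to 3 digits), so presence of the peak did not set the unmarked regions apart. The exception lay at chrX:17317653-17317856, 1428 bp from the nearest wildtype KDM5 peak and 1360 bp from the nearest H3K4me3 peak. Its anti-HA folds were 2.42 in control 1, 2.45 in control 2, 3.33 in paraquat 1 and 2.79 in paraquat 2. It was thus found by 4 libraries with the HA antibody, at folds below the median of the unmarked regions in each, and not by the antibody against the native protein.

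Endogenous KDM5 was lower at unmarked regions, also among regions of like anti-HA strength. Median wildtype KDM5 fold was 7.54 at the 542 regions, with the middle 50% between 6.40 and 8.57, and 9.13 at core regions with the mark, with the middle 50% between 8.13 and 9.96. Of the unmarked regions 4.79% (3.29 to 6.92) had a wildtype peak in the upper 10% of its list, against 32.4% (30.6 to 34.1) of the marked ones. The median was lower without the mark in each of the 10 deciles of anti-HA strength, at 7.51 against 8.36 in the weakest and 7.61 against 9.29 in the sixth. It was lower as well in each of the 9 deciles of width that held unmarked regions, and in the same deciles when the comparison was limited to core regions with 1 H3K4me3 peak. Strength and width were not matched together. Median width was 424 bp without the mark against 514 bp with it in the weakest decile, and 570 against 741 bp in the sixth. Median anti-HA fold was 2.80 against 3.08 in the narrowest decile of width, and 3.13 against 3.79 in the sixth. The strongest decile holds 3 unmarked regions, and its median of 5.75 against 9.52 rests on them. These are values of 1 library, with no replicate and no test, and the wildtype KDM5 and H3K4me3 libraries came from the same strain.

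**Figure D3:**
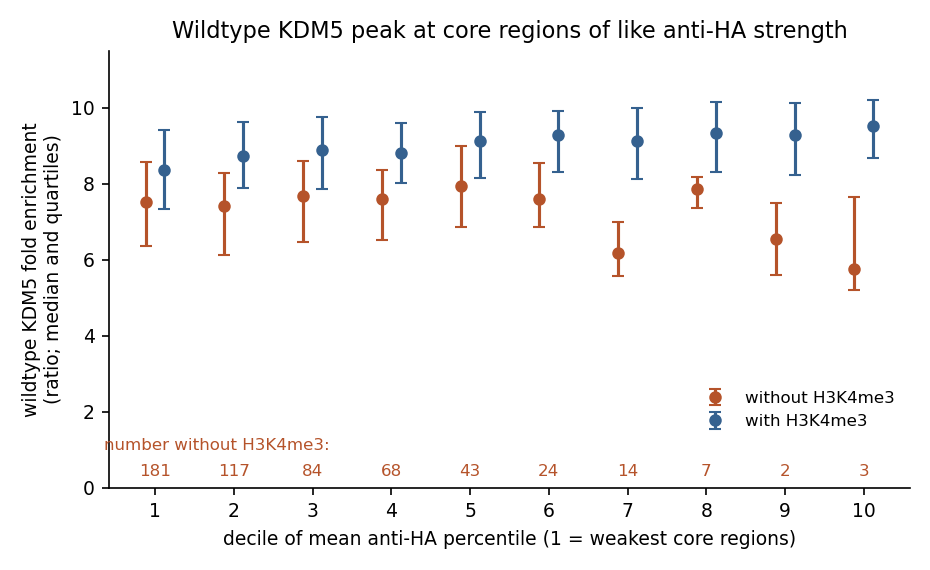
Fold enrichment of the wildtype KDM5 peak (y axis, ratio to local background) in core regions with and without H3K4me3, by decile of mean anti-HA percentile (x axis, 1 is weakest). Points are medians over regions of 1 wildtype library and lines the quartiles; the numbers at the foot count the unmarked regions, from 181 in the first decile to 3 in the last, and the unmarked median is the lower in all 10 deciles.

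Position within the peak was shared between the antibodies at most regions. The nearest wildtype KDM5 summit lay a median of 60 bp from the median of the 4 anti-HA summits, beside 58.5 bp in marked core regions. It lay within 100 bp at 68.1% (64.1 to 71.9) of unmarked and 68.5% (66.8 to 70.2) of marked regions. The largest distance at an unmarked region was 2590 bp. The anti-HA summits of the 4 libraries themselves spread over a median of 137 bp, beside 145 bp. By contrast, the order of heights was hardly shared between the antibodies at unmarked regions. Spearman's rho between mean anti-HA percentile and wildtype percentile was 0.042 over 542 unmarked and 0.23 over 2794 marked regions. Between pairs of anti-HA libraries it ran from 0.27 (control 1 with paraquat 2) to 0.59 (control 1 with paraquat 1) without the mark. With the mark it ran from 0.63 to 0.80. Libraries of the same number gave the higher values, at 0.59 and at 0.54 (control 2 with paraquat 2) without the mark. The 2 control libraries gave 0.42 there and the 2 paraquat libraries 0.33. With the mark the same-numbered pairs gave 0.79 and 0.80, and the pairs within a condition 0.66 and 0.67. The cause was not tested. These values, over regions of the same libraries, carry no test.

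A wildtype KDM5 peak that covered an unmarked region could reach the mark beside it. This was so for 79 of the 542, or 14.6% (11.9 to 17.8), and in 54 of the 542 the peak also covered a core region with H3K4me3. These were mostly the near regions: 61 of the 122 within 500 bp, 15 of the next 77 up to 1000 bp, 3 of 148 up to 5000 bp and none of the 195 farther away. The wildtype peaks were wider than the anti-HA regions, with a median of 1021.5 bp, and 17 were narrower than the region they covered. The shortest peak deposited was 206 bp in that list and 100 bp in the others, so widths of the 2 kinds of list are not on one scale.

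The strongest unmarked regions are named by mean percentile. First came an 829 bp region at chr2L:19581721-19582549, with anti-HA folds of 6.95 in control 1, 6.83 in control 2, 6.86 in paraquat 1 and 6.97 in paraquat 2. Its pileups were 108, 91, 100 and 99 fragments. All 4 libraries gave it nearly the same height, with a mean fold of 6.90 ± 0.066 (SD, n = 4, control and paraquat pooled). Its wildtype KDM5 fold was 5.75, at the 49.7th percentile of the wildtype list and below the middle 50% of the unmarked regions (6.40 to 8.57). The wildtype summit lay 285 bp from the median anti-HA summit, beside a median of 60 bp over the unmarked regions. The nearest H3K4me3 peak lay 1873 bp away. The second lay at chr2L:10246739-10247126, with folds of 4.85, 6.53, 7.41 and 5.50 in the same order of libraries, a wildtype fold of 4.67, and 13208 bp to the nearest H3K4me3 peak. Its 4 anti-HA summits fell within 2 bp of each other, while its heights varied, with paraquat 1 highest and control 1 lowest. The third, at chr2R:20458469-20459403, is one of the regions at the edge of the rule, with folds of 5.74, 5.42, 5.91 and 4.74 and a wildtype fold of 9.55. Only these 3 had a mean percentile above 90.

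The next 7 were at chr2R:2560279-2561462, chr2R:14706946-14707420 and chr2R:11570234-11570724, at chr3L:4403336-4404004, at chrX:17995075-17995426, and at chr3R:16461011-16461709 and chr3R:24670206-24670572. Their mean anti-HA folds were 4.16 to 4.83, and their wildtype folds 4.64 to 10.4. The 4 libraries spread by an SD of 0.256 to 0.908 in these 7. The region at 2560279 on 2R was the most even, with folds of 4.49 in control 1, 4.80 in control 2, 4.96 in paraquat 1 and 5.08 in paraquat 2. The region at 16461011 on 3R was the least even, at 3.67, 4.42, 3.31 and 5.36 in that order, with a background in paraquat 1 of 1.67 times the lowest of its list. Paraquat libraries gave both its lowest and its highest fold. All 10 had their 4 anti-HA summits within 100 bp of each other. This held for 38.5% (34.5 to 42.6) of the 543 and for 40.6% (38.7 to 42.4) of marked core regions. The 10 were chosen by strength, and no share is given for marked regions of like strength. In 4 of the 10 the background stood at the lowest value of the list in every library, beside 97 of the 543.

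**Figure D4:**
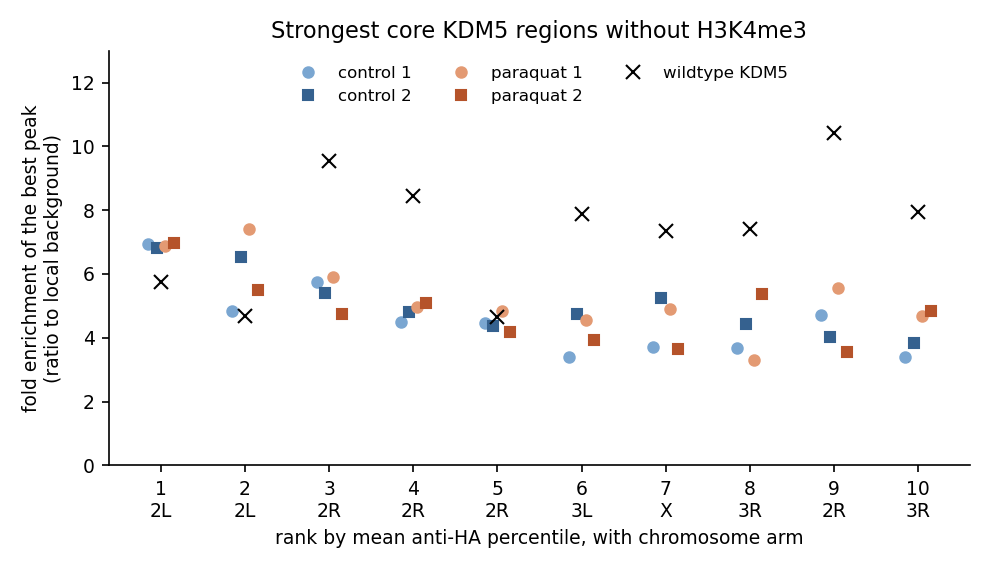
Fold enrichment (y axis, ratio to local background) in each of the 4 anti-HA libraries and in the wildtype KDM5 library for the 10 unmarked core regions of highest mean anti-HA percentile (x axis, rank and chromosome arm). Each point is 1 library; in the first region the anti-HA points lie between 6.83 and 6.97 and the wildtype value is 5.75, and the 2 antibodies' folds are not on one scale.

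At the other end, the 5 weakest lay at chr2R:14029487-14029734, at chr3R:18274020-18274404, at chrX:13519043-13519413 and chrX:5985054-5985422, and at chr2L:3713361-3713721. Their mean anti-HA folds were 2.16 to 2.31. The first had the lowest wildtype KDM5 fold of all 542, at 2.03, and the other 4 had wildtype folds of 4.40 to 8.74. Only 1 of the 5 (the region at 5985054 on X) was above the wildtype median of 7.54 and the rest were below it. The widest regions were at chr3L:9961054-9962352 (1299 bp), the one on 2R at 2560279 named above (1184 bp) and at chr3R:16952750-16953930 (1181 bp). They held 7 to 9 anti-HA peaks in all.

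The regions farthest from H3K4me3 varied widely in height. The farthest, at chrX:9672605-9673236, lay 119400 bp from the nearest H3K4me3 peak. Its anti-HA folds were 3.57 in control 1, 4.01 in control 2, 3.96 in paraquat 1 and 3.98 in paraquat 2, with a wildtype fold of 4.77, so 3 libraries placed it alike and control 1 somewhat lower. The next 4 were on 2L at 3713361 (99415 bp, among the 5 weakest), at chr3L:17646791-17647505 (96152 bp), at chr3R:24521941-24522485 (89723 bp) and at chr2R:358277-358690 (88741 bp). Their mean folds were 2.31, 3.55, 2.64 and 3.06. The last, near the end of the 2R sequence that adjoins the centromere, had 1182376 bp to the next core region, and its background reached 1.63 times the lowest of the list in control 2.

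Unmarked regions no more than 10 kb apart formed groups of at most 3. Group size depends on how many regions there are to join. For an unmarked region, the nearest other core region of any kind lay a median of 2653 bp away, beside 1737 bp for marked core regions. It lay within 10 kb for 77.3% (73.6 to 80.7) of unmarked and 83.9% (82.4 to 85.2) of marked regions. The nearest core region was itself unmarked for 18.8% (15.7 to 22.3) of the unmarked regions and for 14.4% (13.1 to 15.7) of the marked ones, beside the 16.3% that unmarked regions make up. Another unmarked region lay within 10 kb of 148 regions, or 27.3% (23.7 to 31.2). Joined at that distance, they formed 65 pairs and 6 groups of 3, and 395 regions stood alone. The 2794 marked regions formed groups of up to 13, and the part of their larger number in this was not tested. Of the 71 pairs and groups, 40 had no H3K4me3 peak anywhere between their ends.

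**Figure D5:**
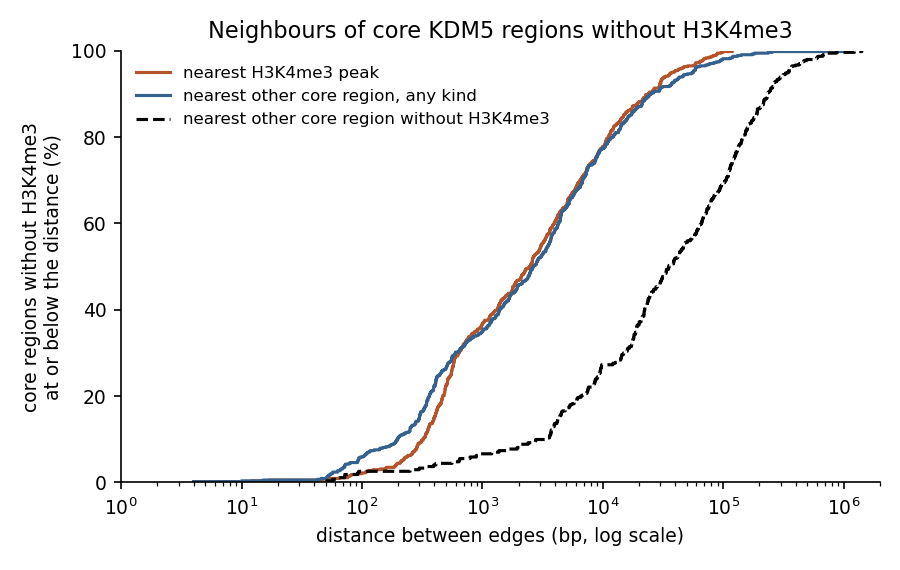
Cumulative share of the 543 core regions without H3K4me3 (y axis, percent) by edge-to-edge distance (x axis, bp, log scale) to the nearest H3K4me3 peak, the nearest core region of any kind and the nearest other unmarked core region. The first 2 curves run close together, with medians of 2465 and 2653 bp, and the third lies to the right, with a median of 35528 bp.

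The strongest group of 3 included the highest region of all. It spanned 7416 bp at chr2L:19580000-19587415, with mean anti-HA folds of 2.80, 6.90 and 2.94, and held 1 H3K4me3 peak between its ends. The group at chr3R:17850382-17862016 had mean folds of 3.70, 2.83 and 3.05, and held 3 marked core regions between its ends. The third, at chr2R:11985820-11997473, had mean folds of 2.41, 2.64 and 3.79 and no H3K4me3 peak inside; its wildtype folds were 7.85, 7.83 and 9.77. The groups thus differed in whether the mark lay among their members.

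Unmarked regions were found on all 5 arms. They made up 19.1% (16.3 to 22.2) of the core regions on 2R, 17.7% on 3L, 15.5% on 2L, 14.9% on 3R and 14.1% (11.6 to 17.1) on X. The 95% Wilson intervals of the highest and the lowest arm overlap, but overlap is not a test, and no difference between arms was tested. On X they numbered 85 of 602, with a median mean fold of 3.01 and a median wildtype fold of 7.59, within the range of the other arms (2.95 to 3.02 and 7.30 to 7.70).

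Paraquat against control was compared on 1 value per library, the ratio of the median fold without the mark to the median fold with it. Each library was thereby scaled to its own marked regions. The unmarked median was 77.2% of the marked one in control 1, 79.7% in control 2, 76.2% in paraquat 1 and 80.4% in paraquat 2. The paraquat libraries held both the lowest and the highest ratio, so the conditions overlapped. On the log2 scale the control ratios averaged −0.35 ± 0.032 and the paraquat ratios −0.35 ± 0.055 (SD, n = 2 per condition). The difference of −0.0033 was smaller than either spread. An exact two-sided permutation test over the 4 libraries gave p = 1, but its smallest possible value is 0.333, so it could show neither a difference nor its absence. By replicate number the difference was −0.020 in number 1 and 0.013 in number 2. The rule asks for a peak in every library, so sites gained or lost with paraquat are outside this comparison.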

How the data were processed

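ChIP-seq peak lists of 6 libraries were used; the 3 inputs were not analysed here. The submitters' processing notes name CASAVA 1.4, Bowtie for alignment, MACS2 for peak calling and the dm3 build. How Bowtie and MACS2 were set, and which input served which library, is not given in the sources used here. Each deposited row holds a peak's position and length in bp, a signal value (the pileup at the summit), the −log10 p-value, a fold enrichment ratio and the −log10 q-value, all made by the authors per library; lists were not pooled. The files have no header, and their columns were read by the order of a MACS2 peak table. Starts count from 0 in the lists and from 1 here.

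Lists were merged and overlapped in Python 3.11.15 with pandas 2.3.3, numpy 2.4.6 and scipy 1.17.1, and the code was checked on artificial intervals against a base-by-base answer. An adjacent peak counts as 1 bp away. Where a library had several peaks in a region, the one with the highest −log10 p was used. Wilson intervals (95%) cover counting error only, and regions are not replicates, since all share the same libraries. The members, lists and named regions were chosen with earlier results of these data known. Named regions are the 10 strongest, 5 weakest, 5 farthest from H3K4me3, 5 on each side of the rule, the 3 widest, the 3 leading groups and any without a wildtype peak. Paraquat and control ratios were compared by an exact permutation test. Alternatives changed the peaks admitted, region extent, the overlap rule, the libraries required and the cluster distance.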

Additional observations from a re-analysis of the deposited data

How the results depend on the processing

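The wildtype KDM5 share kept near its value of 99.8% under most settings, while the number and spacing of unmarked regions moved with several of them. Some settings admitted other peaks, and others changed the distance rule or the extent of a region; beyond that the cause was not tested. With the upper 50% of each anti-HA list there were 71 regions, or 4.13% of core regions, with a median width of 568 bp, 4299 bp to H3K4me3, a wildtype peak at 100% and another unmarked region within 10 kb at 0%. With the upper 50% of the H3K4me3 list there were 1289, or 38.6%, at 577 bp, 3980 bp and 50.2% with a neighbour. Free flanks of 500 bp gave 12.6%, 4163 bp and 21.9%; flanks of 1000 bp gave 344 regions, 10.3%, 6000 bp and 18.6%. Summit windows of 200 bp gave 18.8%, 333 bp wide and 1697 bp to the mark; counting only H3K4me3 summits gave 17.6%. From the control libraries alone came 20.3%, 314 bp, 1590 bp and 37.5%. A wildtype peak from the upper 50% of its list was present at 89.0%, and a wildtype summit inside the region at 86.4%. Neighbours within 5 kb were found for 17.3% and within 20 kb for 36.5%.

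Leaving out each anti-HA library in turn gave 562 to 714 regions, shares of 16.7% to 20.1%, widths of 408 to 466.5 bp, distances of 1979.5 to 2591 bp, wildtype peaks at 99.4% to 99.9% and neighbours for 30.4% to 35.3%. In each case at least 528 of the 543 regions were still among them. The paraquat difference ran from −0.042 to 0.036 in the same way. It was 0.010 with pileups in place of fold, an opposite sign, and −0.021 against marked regions of like width. With the replicate number as a block it was −0.0033. None of these fits could pass 0.05, so no call rests on them. The libraries share only a number in the labels; deviations of same-numbered libraries from their condition means had a correlation of 0.39 over the 543 regions. Depth is unknown, so how many weak H3K4me3 peaks went unlisted cannot be given.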

Other observations

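Outside the large arms, 33 regions had a peak in every anti-HA library, and 18 of them had no H3K4me3 peak. Of these, 2 of 5 lay on chromosome 4, 5 of 8 on mapped heterochromatin and 11 of 20 on the unplaced sequence sets U and Uextra. A wildtype KDM5 peak was present at 7 of the 18, made up of both on chromosome 4, 4 of the 5 on mapped heterochromatin and 1 of the 11 on U and Uextra. The rule for the large arms leaves these regions out, and they are given as counts without a test.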
